A study of Arabidopsis thaliana with 16 samples.

Results

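The data described here ask how the response, after 4 h, of adult Arabidopsis leaves to jasmonic acid (JA) depended on a JA spray given earlier, to the seedling. All 16 libraries of the series enter this comparison, since it needs all 4 combinations of seedling and adult treatment, with 4 libraries in each. The plants were the accession Col-0. In the group JA_JA, seedlings of 2 weeks were sprayed with 1 mM JA and the adult plants of 5 weeks, with more than 9 rosette leaves, with 0.1 mM JA. JA_W plants had the same seedling JA spray and an adult water spray. W_JA plants had a seedling water spray and 0.1 mM JA as adults, and W_W plants had water both times. Every water spray held the same share of ethanol as its matching JA solution, and the wetting agent Silwet L-77 was in all of them at 0.02%. Plants grew at 21 °C with 8.5 h of light and 15.5 h of dark. Leaves were taken 4 h after the second spray, and each library pooled the leaves of 2 plants, with 8 leaves in all. The seedling spray is called history below and the adult JA spray challenge.

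Jasmonates are oxylipin hormones of wounding and of defence against chewing insects and necrotrophic fungi. Their active conjugate brings JAZ repressors to the COI1 receptor for destruction, which frees MYC transcription factors, and these switch on JA synthesis, JA breakdown, the JAZ genes themselves and defence outputs such as vegetative storage proteins and glucosinolates. Salicylic acid (SA), the hormone of defence against biotrophs, acts through the NPR proteins and often opposes JA in leaves.

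For each gene the response to challenge was the log2 change in challenged over unchallenged leaves, taken separately in JA-history plants (JA_JA over JA_W) and in water-history plants (W_JA over W_W). The interaction is the JA-history response minus the water-history response, so a positive value means a more positive response after JA history. It was tested with edgeR's quasi-likelihood F-test over all 16 libraries, with Benjamini-Hochberg adjustment over the 19224 genes that passed the filter on low counts, of 34262 listed. A gene is called here when its adjusted p was under 0.05. Levels are CPM, a gene's reads relative to all counted reads of its library, scaled between libraries, and errors are SD over 4 libraries for levels and SE for log2 values. The libraries held 32190193 to 34319939 counted reads, so 1 read is worth about 0.0293 CPM.

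Some features of the whole data set bear on every value. The first principal component (56.1% of the variance) separated the histories and the second (26.5%) the challenge. Among the unchallenged libraries, W_W replicate 4 and JA_W replicate 1 lay nearest the other history. Without both of them 5150 genes were called, against 3539 with all libraries. They were picked from these same data for lying there, which by itself favours more calls. Counts without both of them are therefore no independent check. Photosystem, antenna and Rubisco transcripts were present in every library, and the summed level of 5 floral organ genes was 0.457 to 0.662 CPM in JA_JA and 0.360 to 0.831 CPM in JA_W, and 0.256 to 0.990 CPM in W_JA and 0.390 to 0.692 CPM in W_W. In whole leaves, fewer cells of a type and less RNA per cell cannot be told apart. Any difference in place, growth or infection that followed the seedling treatment cannot be told apart from the spray itself.

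The response to challenge differed between the histories for 3539 of 19224 genes tested (18.4%). For 1539 genes (8.01%) the response was more positive after JA history, and for 2000 (10.4%) it was more negative. Counts of called list members below are to be read against these shares over all genes. By more than 2-fold, 529 (2.75%) were more positive and 343 (1.78%) more negative. Without JA_W replicate 2 the calls were 1012 more positive and 1332 more negative, and without JA_W replicate 1 887 genes were more positive by over 2-fold. More calls were positive than negative with another scaling (1792 against 1657 by relative log expression), in DESeq2 (2171 against 2002), and without JA_JA replicate 2 (1661 against 1346) or JA_JA replicate 3 (1575 against 1389). Over all genes tested the median interaction was -0.00, and 0.04 with relative log expression scaling. The scaling between libraries largely sets this centre, so it does not bear on the balance of calls in the 2 directions. The challenge by itself changed 6138 genes after JA history (31.9%), with 2964 higher (15.4%) and 3174 lower (16.5%). After water history it changed 5147 (26.8%), with 2674 higher (13.9%) and 2473 lower (12.9%). The starting levels differed as well. Without challenge 12471 genes (64.9%) differed between the histories, and under challenge 7710 (40.1%).

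Most of the genes with an interaction answered the challenge in 1 history and did not pass the test in the other. Of the 1539 genes with a more positive response, 692 rose after JA history and were not called after water history, and 480 fell after water history and were not called after JA history. A further 135 rose after JA history and fell after water history, and 121 rose in both. Of the 2000 genes with a more negative response, 961 fell after JA history and were not called after water history, and 566 rose after water history and were not called after JA history. Another 186 fell after JA history and rose after water history, and 121 rose in both. The median response of the first group of 1539 genes was 0.47 after JA history and -0.28 after water history. That of the 2000 genes was -0.36 after JA history and 0.27 after water history. The scatter plot of the 2 responses shows these genes on either side of the diagonal of equal response.

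**Figure D1:**
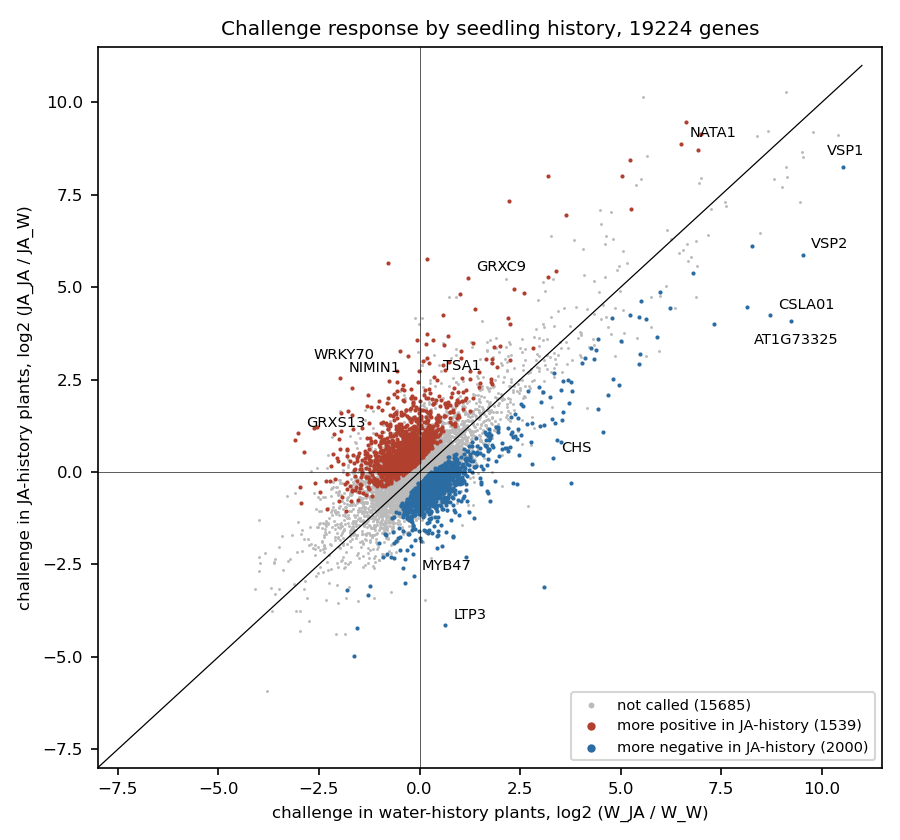
Log2 response to challenge of each tested gene after JA history (vertical axis) and after water history (horizontal axis), with the 1539 genes called more positive and the 2000 called more negative in colour. Genes on the diagonal responded alike; NIMIN1 and WRKY70 lie above it, and VSP2 and CSLA01 far to the right and below it.

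Of the 8 largest positive interactions, among genes with at least 10 reads in every group, 4 were in genes of the SA response. They were NIMIN1, GRXS13, GRXC9, LURP1, NAC004, NIMIN2, WRKY54 and WRKY38, of which NIMIN1, GRXS13, GRXC9 and NIMIN2 belong to that list. NIMIN1 (AT1G02450), which encodes a protein that binds the SA receptor NPR1, had 1.03, 1.14, 0.261 and 1.41 CPM in JA_JA and 0.111, 0.0897, 0.267 and 0.182 CPM in JA_W, and 2.01, 2.76, 3.54 and 2.65 CPM in W_JA and 11.3, 10.9, 11.8 and 9.33 CPM in W_W. Its levels in water-history plants lay above those in JA-history plants, they were lower in every W_JA library than in any W_W library, and the ranges of JA_JA and JA_W overlapped. The NIMIN1 response was 2.54 ± 0.44 after JA history and -1.98 ± 0.27 after water history, an interaction of 4.53 ± 0.51 (edgeR adjusted p = 6.29e-05). GRXS13 (AT1G03850), a glutaredoxin of the class that binds TGA factors, averaged 0.397 ± 0.294 CPM in JA_JA and 0.191 ± 0.100 in JA_W, and 3.36 ± 0.350 in W_JA and 27.2 ± 1.66 in W_W. It fell after water history and was not called after JA history, and its interaction was 4.07 ± 0.53 (edgeR adjusted p = 0.000244). At about 0.0293 CPM a read, the JA_W levels of NIMIN1 and GRXS13 rest on few reads in each library.

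GRXC9 (AT1G28480), a second glutaredoxin of this class, had 5.77, 9.69, 4.54 and 18.7 CPM in JA_JA and 0.553, 0.0299, 0.297 and 0.0910 CPM in JA_W, and 7.63, 16.8, 19.8 and 12.7 CPM in W_JA and 7.86, 5.32, 6.87 and 4.58 CPM in W_W. All JA_JA libraries lay above all JA_W libraries, while the W_JA and W_W ranges overlapped. The GRXC9 response was 5.26 ± 0.62 after JA history and 1.21 ± 0.43 after water history, an interaction of 4.05 ± 0.78 (edgeR adjusted p = 0.00347), and without JA_W replicate 1, whose level was the highest of its group, the interaction was 4.86. LURP1 (AT2G14560), a gene needed for full resistance to an oomycete, averaged 139 ± 124 CPM in JA_JA and 14.3 ± 14.7 in JA_W, and 653 ± 118 in W_JA and 914 ± 282 in W_W. Its interaction of 3.76 ± 1.02 (edgeR adjusted p = 0.0207) became 4.78 without JA_W replicate 4. WRKY38, a repressor of basal defence, had an interaction of 3.38 ± 0.70 (edgeR adjusted p = 0.00463), and 3.96 without the same library. NAC004, a NAC-domain factor, and NIMIN2, a second NPR1-binding protein, had interactions of 3.75 ± 0.57 and 3.45 ± 0.59 (edgeR adjusted p = 0.000616 and 0.00165).

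The largest negative interactions among the same genes were of another kind. AT1G73325, LTP3, CSLA01, VSP2, CHS, TBL26, PAP1 and MYB47 led them, and 5 of these 8 rose with challenge in both histories. VSP2 (AT5G24770), an acid phosphatase and the best known output of the MYC branch, had 5329, 8313, 8358 and 7743 CPM in JA_JA and 150.1, 147, 97.8 and 109 CPM in JA_W, and 2516, 2770.0, 3289.7 and 2364 CPM in W_JA and 4.13, 3.86, 1.88 and 4.87 CPM in W_W. All 4 groups were separate, with JA_JA the highest and W_W the lowest. The VSP2 response was 5.88 ± 0.27 after JA history and 9.54 ± 0.32 after water history, an interaction of -3.65 ± 0.33 (edgeR adjusted p = 1.05e-05). CSLA01 (AT4G16590), of the family that makes mannan backbones of the cell wall, had 273, 316, 377 and 342 CPM in JA_JA and 14.8, 16.1, 13.2 and 25.1 CPM in JA_W, and 118, 176, 236 and 222 CPM in W_JA and 0.446, 0.409, 0.471 and 0.464 CPM in W_W. As for VSP2, the groups did not overlap, and the unchallenged JA_W plants already stood above W_W. The CSLA01 response was 4.24 ± 0.23 after JA history and 8.70 ± 0.30 after water history, an interaction of -4.47 ± 0.35 (edgeR adjusted p = 3.94e-06).

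AT1G73325, which the annotation describes as a Kunitz trypsin inhibitor family protein, averaged 125 ± 16.5 CPM in JA_JA and 7.30 ± 5.79 in JA_W, and 85.3 ± 11.6 in W_JA and 0.139 ± 0.0957 in W_W. The AT1G73325 response was 4.09 ± 0.39 after JA history and 9.24 ± 0.58 after water history, an interaction of -5.14 ± 0.72 (edgeR adjusted p = 0.000585), and -4.42 without JA_W replicate 1. TBL26, of a family that acetylates cell wall polymers, had an interaction of -2.73 ± 0.27 (edgeR adjusted p = 1.99e-05). MYB47 (AT1G18710) went another way: it averaged 0.972 ± 0.213 CPM in JA_JA and 6.83 ± 0.630 in JA_W, and 3.17 ± 0.683 in W_JA and 3.52 ± 0.778 in W_W. It fell with challenge after JA history (-2.81 ± 0.20) and was not called after water history (-0.14 ± 0.18), an interaction of -2.67 ± 0.27 (edgeR adjusted p = 2.84e-05).

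**Figure D2:**
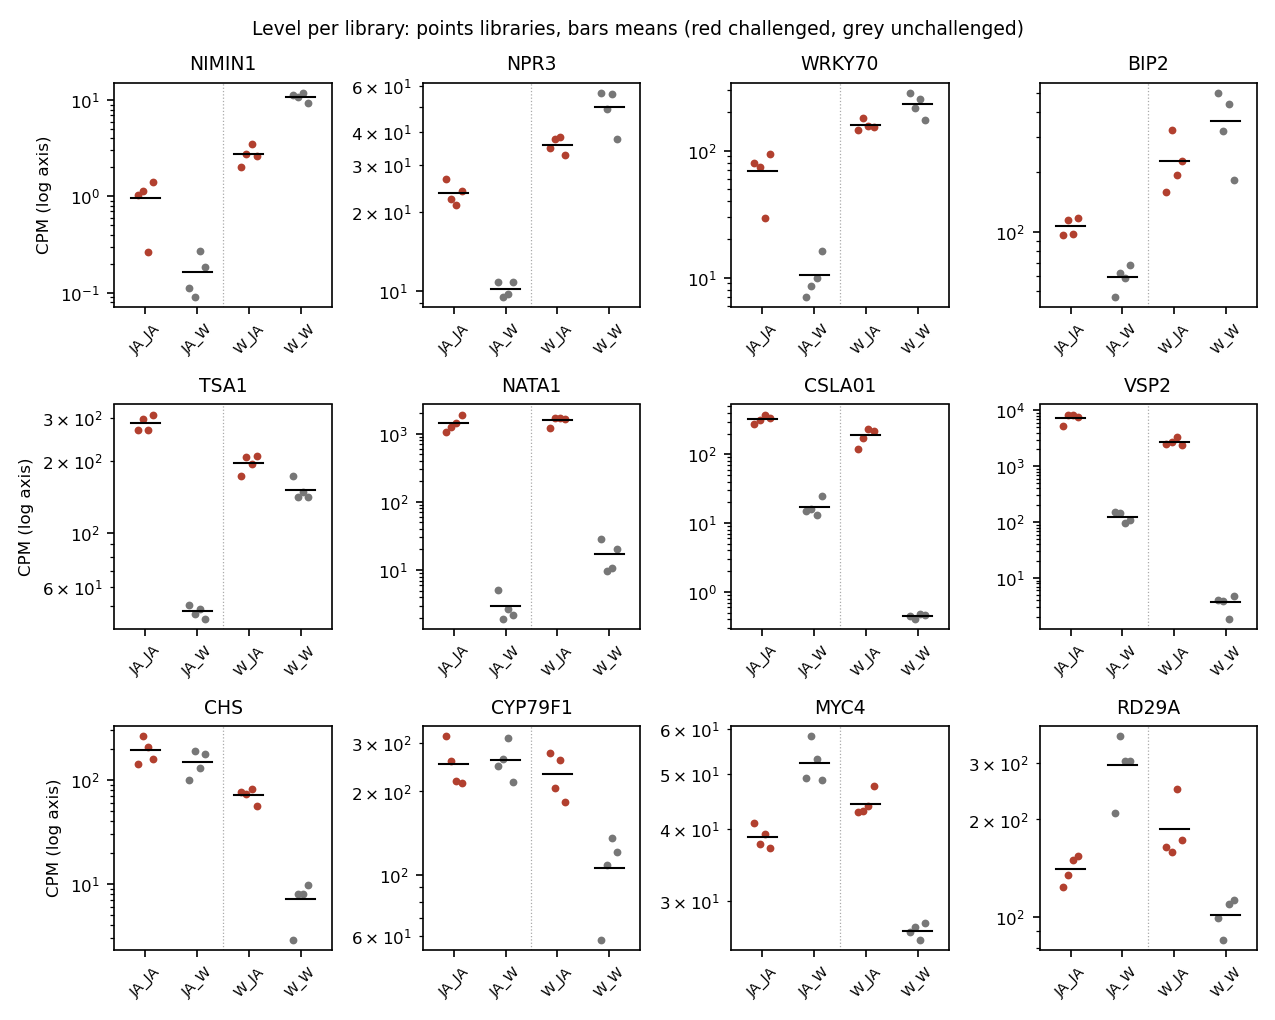
Level in each library (scaled CPM, log axis) of 12 genes, with the groups JA_JA, JA_W, W_JA and W_W from left to right. Challenged libraries are red, unchallenged ones grey, and bars are group means of 4 libraries; the SA genes NIMIN1, NPR3 and WRKY70 are highest in the water-history groups, while VSP2 and CSLA01 are lowest in W_W.

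The sequences just upstream of NIMIN1 and AT1G73325, which had the largest interaction in each direction among genes with at least 10 reads in every group, are shown as context for these genes. They are the 250 bases before the annotated gene start, written 5′ to 3′ on the gene's strand, from the RefSeq genome TAIR10.1. The motifs were the G-box CACGTG, bound by MYC factors, the W-box TTGACC or TTGACT, bound by WRKY factors, the GCC-box GCCGCC, the evening element core AATATCT and the TGA-factor core TGACGT, each on both strands, and none is contained in another. Capitals mark the matches.
NIMIN1 promoter, chr1:498540-498789, minus strand: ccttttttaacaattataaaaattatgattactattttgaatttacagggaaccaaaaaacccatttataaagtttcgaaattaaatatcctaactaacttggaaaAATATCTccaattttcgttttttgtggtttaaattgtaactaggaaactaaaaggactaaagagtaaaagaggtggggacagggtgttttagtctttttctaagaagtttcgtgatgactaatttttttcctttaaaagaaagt
AT1G73325 promoter, chr1:27568282-27568531, minus strand: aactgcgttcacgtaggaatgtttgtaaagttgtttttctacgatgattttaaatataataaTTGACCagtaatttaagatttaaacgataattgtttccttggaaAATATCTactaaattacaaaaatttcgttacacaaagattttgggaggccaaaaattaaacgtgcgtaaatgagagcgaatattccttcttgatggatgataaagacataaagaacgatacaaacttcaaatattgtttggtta
The NIMIN1 window holds 1 AATATCT match, and that of AT1G73325 holds 1 W-box and 1 AATATCT match. The windows of GRXS13, GRXC9 and LTP3 hold none of the 5 motifs. Over all calls, a W-box stood in 33.33% of the windows of the 1539 genes with a more positive response, in 25.55% of the 2000 with a more negative response and in 28.33% of the 19137 tested genes with a window. The G-box stood in 9.36%, 8.2% and 7.41% of the same sets, and TGACGT in 10.72%, 7.0% and 8.0%. The GCC-box stood in 2.27%, 1.4% and 2.03% of them, and AATATCT in 11.63%, 10.65% and 10.17%.

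The SA response list as a whole leaned one way. Of its 11 tested members, 7 were called more positive after JA history and 0 more negative, with a median interaction of 1.68. The more negative count was 1 without W_JA replicate 3. After JA history 6 of them rose with challenge and 1 fell, and after water history 1 rose and 5 fell. NPR3 (AT5G45110), an SA receptor that represses defence genes, had 26.5, 22.3, 21.3 and 24.0 CPM in JA_JA and 10.8, 9.48, 9.71 and 10.8 CPM in JA_W, and 34.9, 37.6, 38.4 and 32.8 CPM in W_JA and 56.3, 49.0, 56.1 and 37.7 CPM in W_W. Every JA_JA library was above every JA_W library, the W_JA and W_W ranges overlapped, and both JA-history groups were below their water-history counterparts. The NPR3 response was 1.21 ± 0.12 after JA history and -0.47 ± 0.11 after water history, an interaction of 1.68 ± 0.16 (edgeR adjusted p = 1.76e-05), called higher in the first and lower in the second. NPR4, the related receptor, had an interaction of 1.19 ± 0.19 (edgeR adjusted p = 0.000951), while NPR1 had 0.28 ± 0.14 and was not called (edgeR adjusted p = 0.18).

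The classical SA marker PR1, an antimicrobial secreted protein, was hardly read after JA history, with 34 reads in JA_JA and 7 in JA_W, and 71548 in W_JA and 72804 in W_W. It averaged 0.282 ± 0.464 CPM in JA_JA and 0.0528 ± 0.0674 in JA_W, and 530.0 ± 362 in W_JA and 500.4 ± 256 in W_W, and its interaction did not pass the test (edgeR adjusted p = 0.446). The summed level of the list's 11 members was 204 to 371 CPM in JA_JA and 197 to 226 CPM in JA_W, and 2714 to 7883 CPM in W_JA and 2062 to 4648 CPM in W_W. The challenged and unchallenged ranges overlapped in each history, and the histories did not overlap.

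Among genes that make SA and N-hydroxypipecolate, a second immune signal, 2 of 10 tested genes were called more positive and 1 more negative, with a median of 0.70. The first of these counts was 4 without both W_W replicate 4 and JA_W replicate 1 or in DESeq2. SARD1 (AT1G73805), a transcription factor that switches on SA synthesis, had 26.3, 11.6, 8.91 and 23.6 CPM in JA_JA and 2.79, 2.06, 2.61 and 3.03 CPM in JA_W, and 89.1, 96.9, 58.8 and 102 CPM in W_JA and 123, 74.0, 87.6 and 68.9 CPM in W_W. The JA_JA libraries stood clear above JA_W, while W_JA and W_W overlapped at a higher level. The SARD1 response was 2.75 ± 0.34 after JA history and -0.02 ± 0.29 after water history, an interaction of 2.77 ± 0.45 (edgeR adjusted p = 0.00129). EDS5, the plastid transporter of the SA precursor, had responses of 2.28 ± 0.28 after JA history and 0.86 ± 0.24 after water history (edgeR adjusted p of the interaction = 0.0148). ICS2, the minor isochorismate synthase, was the member called more negative (-1.14 ± 0.33, edgeR adjusted p = 0.0271), a call lost without any 1 of 7 libraries (log2 -1.09 to -1.06, edgeR adjusted p 0.0519 to 0.0605). Of 5 genes of SA turnover, DMR6, which hydroxylates SA, and UGT74F2, which glucosylates it, were more positive, at 2.02 ± 0.52 and 1.79 ± 0.40 (edgeR adjusted p = 0.0157 and 0.00759).

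WRKY transcription factors, zinc-finger regulators of defence, held the largest block of such genes. Of 52 tested, 17 were called more positive and 0 more negative, with a median interaction of 0.52. The more negative count was 1 without any 1 of W_W replicate 2 and JA_W replicate 1. After JA history 14 of the 52 rose with challenge and 6 fell, and after water history 5 rose and 22 fell. WRKY70 (AT3G56400), which promotes SA outputs and represses some JA ones, had 80.3, 74.7, 29.4 and 93.7 CPM in JA_JA and 7.03, 8.52, 9.95 and 16.4 CPM in JA_W, and 146, 179.8, 157 and 152 CPM in W_JA and 284, 217, 255 and 176 CPM in W_W. The JA_JA libraries lay above the JA_W libraries without overlap, and all of them lay below the water-history plants, where challenged and unchallenged libraries overlapped. The WRKY70 response was 2.73 ± 0.32 after JA history and -0.55 ± 0.29 after water history, an interaction of 3.29 ± 0.43 (edgeR adjusted p = 0.000356). WRKY54, a close homologue, averaged 48.4 ± 23.7 CPM in JA_JA and 5.53 ± 2.71 in JA_W, and 77.5 ± 19.8 in W_JA and 94.4 ± 10.7 in W_W, with an interaction of 3.41 ± 0.54 (edgeR adjusted p = 0.00112).

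Of 13 genes of pattern recognition and early signalling, 6 were called more positive and 0 more negative, with a median of 0.42. They were FLS2, the flagellin receptor, its co-receptor BAK1, the chitin receptors LYK5 and CERK1, the receptor-proximal kinase BIK1 and the MAP kinase MPK6. FLS2 (AT5G46330) averaged 11.4 ± 1.21 CPM in JA_JA and 10.6 ± 2.76 in JA_W, and 15.2 ± 1.36 in W_JA and 29.1 ± 3.93 in W_W. It fell with challenge after water history (-0.94 ± 0.15) and was not called after JA history (0.11 ± 0.15), an interaction of 1.05 ± 0.21 (edgeR adjusted p = 0.00332). The calls for LYK5 and BIK1 were each lost without any 1 of 9 single libraries, with edgeR adjusted p up to 0.075 and 0.0875 and log2 values of 0.78 to 0.98 and 0.61 to 0.72. The BIK1 call was also lost with scaling by library totals (edgeR adjusted p = 0.0534, log2 0.72). The number of calls in this list was 3 without any 1 of W_W replicate 1, W_JA replicate 3, JA_W replicates 2 and 3 and JA_JA replicate 1.

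Intracellular receptors of the TIR-NBS-LRR class, which recognise pathogen effectors, had 10 of 70 tested members called more positive and 0 more negative, with a median of 0.31. After JA history 17 of them rose and 5 fell, while after water history 1 rose and 18 fell. The count called more positive was 4 to 6 without any 1 of W_W replicates 1, 2 and 3, W_JA replicate 3, JA_W replicates 2 and 3 and JA_JA replicate 1, 17 without JA_JA replicate 3, 16 with relative log expression scaling, 17 without both W_W replicate 4 and JA_W replicate 1 and 19 in DESeq2. AT4G36150 averaged 7.41 ± 3.28 CPM in JA_JA and 3.27 ± 0.251 in JA_W, and 13.8 ± 1.25 in W_JA and 15.6 ± 3.56 in W_W, with an interaction of 1.36 ± 0.35 (edgeR adjusted p = 0.0146). AT5G45000 had the largest value, 1.95 ± 0.53 (edgeR adjusted p = 0.0194), and lost the call without JA_JA replicate 1 (log2 1.73, edgeR adjusted p = 0.0552). Many of these genes are close copies of one another, and how the deposited counts treated reads shared between copies is not given in the sources used here. Coiled-coil receptors had 1 of 19 called, a share of 5.26% against the 8.01% of all genes. It was NRG1.2 (AT5G66910), a helper of TIR receptors (1.51 ± 0.26, edgeR adjusted p = 0.00139). The number called was 2 without any 1 of W_JA replicates 1 and 3, JA_W replicate 1 and JA_JA replicate 4, 3 without JA_JA replicate 2, 4 without any 1 of W_W replicate 4 and JA_JA replicate 3, 2 with a filter of 1 CPM in 4 libraries, 3 with relative log expression scaling, 4 in DESeq2 and 5 without both W_W replicate 4 and JA_W replicate 1. In a list of the EDS1 node, which relays TIR signals, helper receptors and the immune regulators NDR1 and RIN4, 3 of 10 were called more positive, and 6 without W_W replicate 4 and 6 without both W_W replicate 4 and JA_W replicate 1. Besides the helper NRG1.2 these were ADR1-L1, another helper receptor, with 0.72 ± 0.21 and a call lost without W_W replicate 1 (log2 0.60, edgeR adjusted p = 0.0537), JA_W replicate 2 (log2 0.65, edgeR adjusted p = 0.0599) or JA_JA replicate 1 (log2 0.64, edgeR adjusted p = 0.0564), and RIN4, which coiled-coil receptors guard, with 0.66 ± 0.13 (edgeR adjusted p = 0.00286). Cysteine-rich receptor kinases had 4 of 37 more positive, CRK3, CRK28, CRK2 and CRK19, a share not far from the 8.01% of all genes, and 0 more negative. The more negative count was 1 without any 1 of W_W replicates 1 and 4 and W_JA replicate 4 and 1 without both W_W replicate 4 and JA_W replicate 1.

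**Figure D3:**
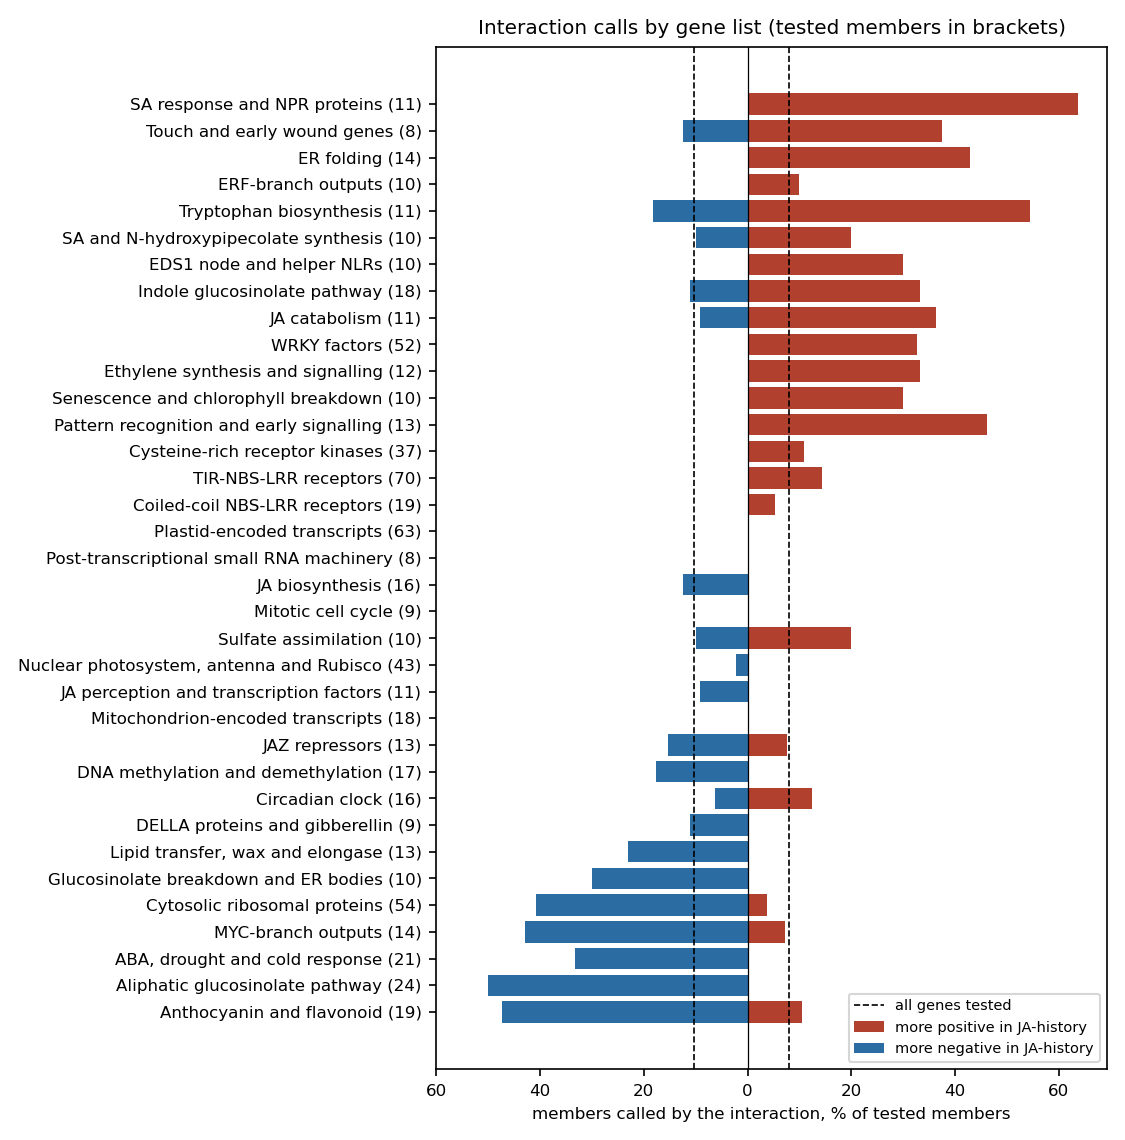
Share of tested members (%) called more positive (right, red) and more negative (left, blue) after JA history in the gene lists with 8 or more tested members, sorted by their median interaction. The SA response list has the highest share called more positive and the aliphatic glucosinolate list the highest share called more negative; dashed lines mark the shares over all genes, 8.01% and 10.4%.

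Of 14 tested genes of protein folding in the endoplasmic reticulum (ER), 6 were called more positive and 0 more negative, with a median interaction of 0.98. The number called was 10 without both W_W replicate 4 and JA_W replicate 1. After JA history 8 rose and 0 fell, and after water history 0 rose and 2 fell. BIP2 (AT5G42020), the ER-lumenal Hsp70, had 96.4, 115, 97.3 and 117 CPM in JA_JA and 46.9, 62.2, 58.6 and 67.8 CPM in JA_W, and 158, 327, 193 and 229 CPM in W_JA and 499.5, 324, 441 and 183 CPM in W_W. JA_JA libraries stood above JA_W libraries without overlap, and W_JA and W_W libraries overlapped. The BIP2 response was 0.86 ± 0.26 after JA history and -0.68 ± 0.26 after water history, an interaction of 1.53 ± 0.37 (edgeR adjusted p = 0.0102). BIP1 is a near-identical copy, so that reads of 50 bases may be split between them, and had 1.32 ± 0.32. The co-chaperone ERDJ3B had 1.36 ± 0.34, the lectin chaperone CNX1 1.33 ± 0.34, SDF2 1.1 ± 0.29 and the calreticulin CRT1A 0.93 ± 0.29 (edgeR adjusted p = 0.0102, 0.0123, 0.0144, 0.0159 and 0.0362). The stress-sensing factors bZIP60 and bZIP28 were not called (edgeR adjusted p = 0.167 and 0.176).

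Tryptophan synthesis, which feeds indole glucosinolates and camalexin, held 6 of 11 tested genes with a more positive response and 2 with a more negative one. TSA1 (AT3G54640), the alpha subunit of tryptophan synthase, had 268, 296, 267 and 309.6 CPM in JA_JA and 50.8, 46.4, 48.6 and 44.5 CPM in JA_W, and 173, 206, 194 and 209 CPM in W_JA and 173, 142, 149 and 142 CPM in W_W. Unchallenged JA_W plants were lower than W_W, while challenged JA_JA plants were higher than W_JA, in each case without overlap. The TSA1 response was 2.58 ± 0.10 after JA history and 0.37 ± 0.09 after water history, an interaction of 2.21 ± 0.13 (edgeR adjusted p = 1.27e-07). ASA1 and ASB1, both subunits of anthranilate synthase, the committed step, had interactions of 1.31 ± 0.17 and 1.82 ± 0.20, and IGPS (AT2G04400), of a middle step, 1.33 ± 0.19 (edgeR adjusted p = 0.000244, 5.48e-05 and 0.000465). All 3 rose after JA history and were not called after water history. PAT1 and TSB2 were the other members more positive, at 1.09 ± 0.15 and 0.70 ± 0.21 (edgeR adjusted p = 0.000358 and 0.0311). PAI1 and ASA2, a second anthranilate synthase alpha subunit, were more negative, at -0.92 ± 0.18 and -0.42 ± 0.13 (edgeR adjusted p = 0.00293 and 0.032), and the number of such calls was 1 without any 1 of W_W replicates 1, 2 and 3, W_JA replicates 1 and 3, JA_W replicates 2, 3 and 4 and JA_JA replicates 1, 2 and 3.

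Of 18 tested genes of the indole glucosinolate pathway 6 were more positive, MYB122, MYB51, CYP83B1, SOT16, GSTF10 and UGT74B1, and 2 were more negative, IGMT5 and MYB34. The first number was 2 to 3 without any 1 of W_W replicate 1, W_JA replicate 3, JA_W replicates 2 and 4 and JA_JA replicate 1. MYB51 (AT1G18570), a main activator of the pathway in shoots, had 11.6, 3.82, 4.73 and 7.56 CPM in JA_JA and 5.62, 2.84, 5.34 and 5.55 CPM in JA_W, and 27.3, 24.1, 17.0 and 25.7 CPM in W_JA and 69.2, 57.3, 58.7 and 47.2 CPM in W_W. It was lower in every W_JA library than in any W_W library, and in JA-history plants the challenged and unchallenged ranges overlapped. The MYB51 response was 0.52 ± 0.30 after JA history and -1.30 ± 0.28 after water history, an interaction of 1.83 ± 0.41 (edgeR adjusted p = 0.00779). MYB122, another activator, was read by few fragments: 23 reads in JA_JA and 0 in JA_W, and 66 in W_JA and 124 in W_W. MYB34 had the opposite sign to MYB51, with a response of -0.03 ± 0.16 after JA history and 1.09 ± 0.16 after water history, an interaction of -1.11 ± 0.23 (edgeR adjusted p = 0.00411). IGMT5, which methoxylates the indole ring, averaged 137 ± 24.0 CPM in JA_JA and 3.26 ± 0.769 in JA_W, and 94.1 ± 15.7 in W_JA and 0.837 ± 0.238 in W_W, and its response was 5.39 ± 0.20 after JA history and 6.81 ± 0.22 after water history, an interaction of -1.42 ± 0.28 (edgeR adjusted p = 0.00293). In the camalexin list 0 of 4 tested genes were called by edgeR, DESeq2 or limma-voom, and 0 had an unadjusted edgeR p under 0.05. The edgeR count was 2 without JA_W replicate 1 and 2 without both W_W replicate 4 and JA_W replicate 1. PAD3, the last enzyme of camalexin synthesis, averaged 9.14 ± 9.11 CPM in JA_JA and 9.34 ± 10.3 in JA_W, and 81.7 ± 45.6 in W_JA and 210.5 ± 29.3 in W_W (edgeR adjusted p = 0.348). CYP71A13, an earlier enzyme, averaged 2.83 ± 3.52 CPM in JA_JA and 0.485 ± 0.471 in JA_W, and 62.8 ± 39.7 in W_JA and 52.2 ± 17.3 in W_W (edgeR adjusted p = 0.186). Without JA_W replicate 1, the highest of its group, the PAD3 interaction of 1.32 became 2.47 and was called.

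Of 24 tested genes of the aliphatic glucosinolate pathway, which builds side chains from methionine, 12 were called more negative after JA history and 0 more positive, with a median interaction of -0.76. After water history 19 of the 24 rose with challenge and 0 fell, and after JA history 5 rose and 0 fell. CYP79F1 (AT1G16410), which makes the aldoximes of methionine chains, had 317, 257, 219 and 215 CPM in JA_JA and 248, 263, 311 and 216 CPM in JA_W, and 275, 205, 259 and 184 CPM in W_JA and 58.1, 108, 135 and 120.4 CPM in W_W. W_JA libraries stood above W_W libraries without overlap, JA_W libraries also stood above W_W, and JA_JA and JA_W overlapped. The CYP79F1 response was -0.04 ± 0.21 after JA history and 1.13 ± 0.22 after water history, an interaction of -1.17 ± 0.30 (edgeR adjusted p = 0.0147). The flavin monooxygenases of the side chain, FMOGS-OX1, FMOGS-OX2 and FMOGS-OX3, had interactions of -1.34 ± 0.30, -1.61 ± 0.35 and -1.13 ± 0.33 (edgeR adjusted p = 0.00656, 0.00541 and 0.03), the last lost without any 1 of 5 libraries (log2 -1.09 to -0.96, edgeR adjusted p 0.0519 to 0.0625) or with scaling by library totals (edgeR adjusted p = 0.0578, log2 -1.07). The other called members were CYP79F2, CYP83A1, BCAT3, IPMI1, IPMI2, IIL1, UGT74C1 (AT2G31790) and SOT17, which between them cover chain elongation, the core structure and its sulfation. The number of calls in this list was 5 to 7 without any 1 of W_JA replicate 1, JA_W replicates 2 and 3 and JA_JA replicates 3 and 4 and 7 with scaling by library totals.

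Genes that break glucosinolates down were called more negative in 3 of 10 cases and more positive in 0. BGLU18, a beta-glucosidase of ER bodies, averaged 5979 ± 642 CPM in JA_JA and 338 ± 82.9 in JA_W, and 3834 ± 299 in W_JA and 77.8 ± 12.3 in W_W, with a response of 4.14 ± 0.18 after JA history and 5.62 ± 0.19 after water history, an interaction of -1.48 ± 0.22 (edgeR adjusted p = 0.000585). The specifier proteins NSP1 and ESP, which steer the breakdown to nitriles, had -0.87 ± 0.16 and -0.85 ± 0.20 (edgeR adjusted p = 0.0019 and 0.00922). In sulfate assimilation 2 of 10 were more positive and 1 more negative. The root-type sulfate transporter SULTR1;2 had 1.47 ± 0.34, GSH1, the first enzyme of glutathione synthesis, 0.35 ± 0.10, and the APS reductase APR2 -0.63 ± 0.16 (edgeR adjusted p = 0.00823, 0.03 and 0.0126). The more positive count was 1 without any 1 of W_W replicate 3, JA_W replicates 1 and 2 and JA_JA replicate 1 and 1 with no low-count filter or without both W_W replicate 4 and JA_W replicate 1, and the GSH1 call was lost without any 1 of 4 libraries (log2 0.32 to 0.35, edgeR adjusted p 0.0505 to 0.068) and with no low-count filter (edgeR adjusted p = 0.0631, log2 0.35) and without both W_W replicate 4 and JA_W replicate 1 (edgeR adjusted p = 0.0671, log2 0.29).

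Anthocyanin and flavonoid genes had the lowest median of the 41 lists, -1.21, with 9 of 19 called more negative and 2 more positive. After water history 12 rose with challenge and 0 fell, and after JA history 10 rose and 5 fell. CHS (AT5G13930), chalcone synthase at the entry of the pathway, had 142, 264, 206 and 159 CPM in JA_JA and 99.2, 189, 130.5 and 178 CPM in JA_W, and 75.8, 72.9, 81.0 and 56.4 CPM in W_JA and 2.87, 8.01, 7.92 and 9.80 CPM in W_W. In water-history plants the challenged libraries were above the unchallenged ones without overlap. In JA-history plants the 2 ranges overlapped, and they lay above those of the water-history plants with the same adult spray. The CHS response was 0.37 ± 0.29 after JA history and 3.32 ± 0.33 after water history, an interaction of -2.95 ± 0.43 (edgeR adjusted p = 0.000601). PAP1 (AT1G56650), the MYB activator of anthocyanin synthesis, averaged 63.7 ± 8.56 CPM in JA_JA and 36.1 ± 8.14 in JA_W, and 39.0 ± 10.4 in W_JA and 3.42 ± 0.841 in W_W, and its response was 0.82 ± 0.21 after JA history and 3.51 ± 0.24 after water history, an interaction of -2.69 ± 0.31 (edgeR adjusted p = 0.000107). F3H, flavanone 3-hydroxylase, had 50 reads in JA_JA and 66 in JA_W, and 31 in W_JA and 2 in W_W, and GL3, a bHLH partner of PAP1, had 254 reads in JA_JA and 65 in JA_W, and 106 in W_JA and 4 in W_W. The GL3 call was lost without any 1 of 10 single libraries, with edgeR adjusted p of 0.0502 to 0.0939. FLS1, MYB111, EGL3, CHI and UGT78D2 were also more negative. The 2 more positive members were MYBL2, a repressor of the pathway, at 0.76 ± 0.14, and TTG1, the WD40 subunit of its activating complex, at 0.58 ± 0.16 (edgeR adjusted p = 0.00204 and 0.021).

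**Figure D4:**
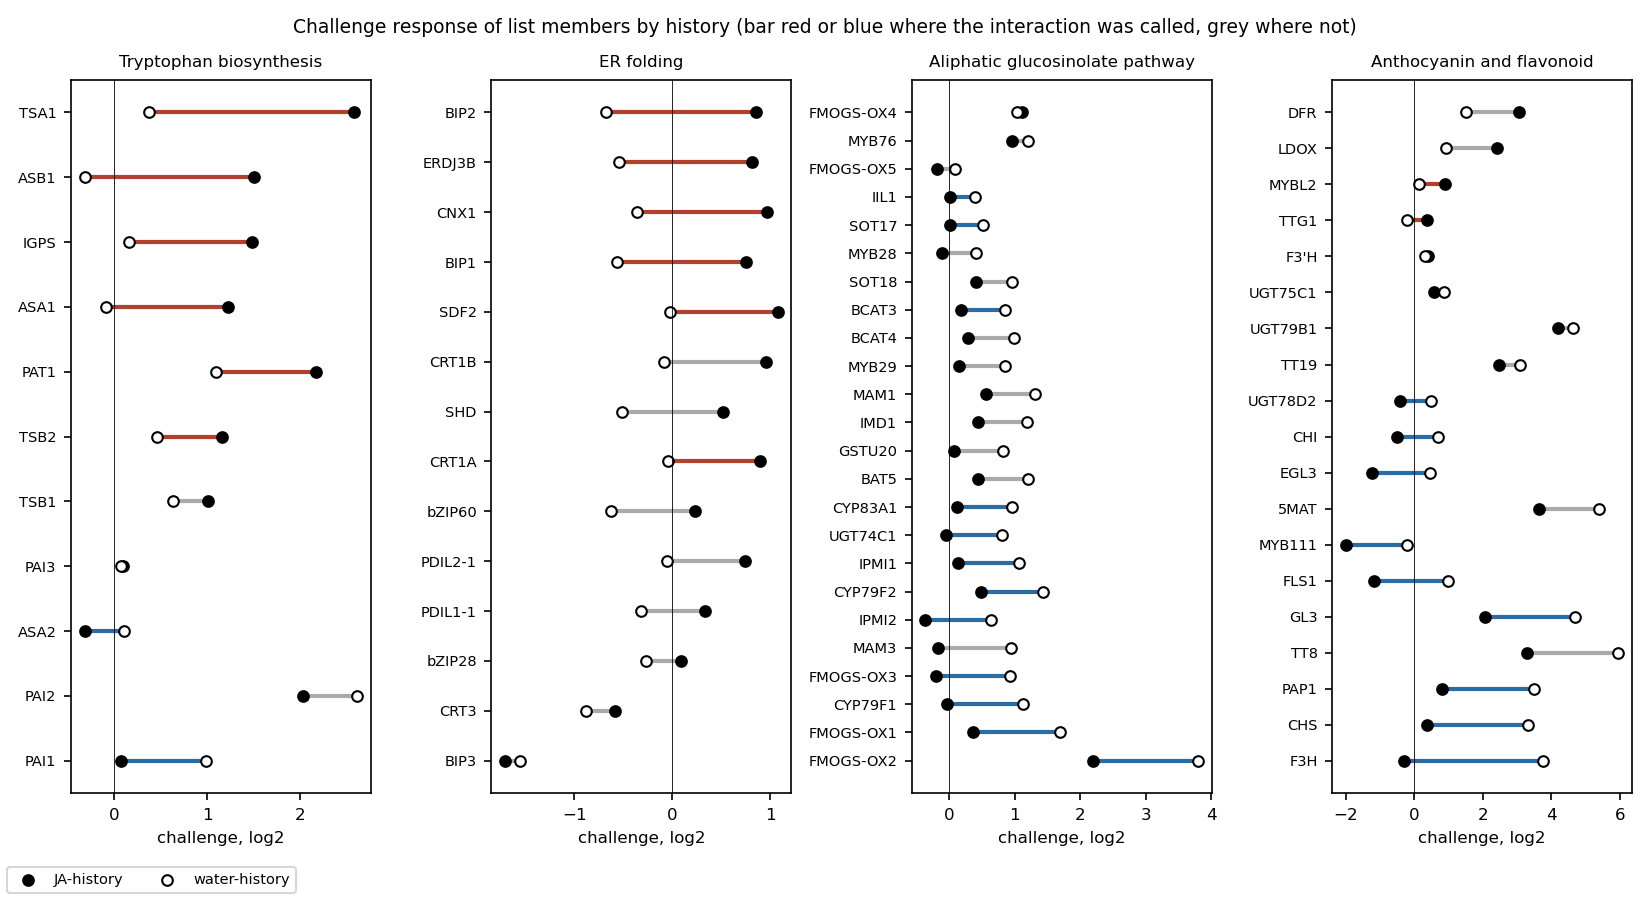
Log2 response to challenge after JA history (black) and after water history (white) of the tested members of 4 lists: tryptophan biosynthesis, ER folding, aliphatic glucosinolates and anthocyanins. In the first 2 the black points mostly lie to the right of the white ones, in the other 2 to the left; for CHS they lie at 0.37 and 3.32.

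JA biosynthesis had 0 of 16 tested genes more positive and 2 more negative. The second share, 12.5%, was close to the 10.4% of all genes. In each history 12 of the 16 rose with challenge and 0 fell. The count called more positive was 1 without any 1 of W_W replicates 2 and 4, W_JA replicates 1 and 2 and JA_JA replicates 2 and 3, 3 without JA_W replicate 1, 1 with relative log expression scaling, with upper-quartile scaling, with scaling by library totals, with a filter of 1 CPM in 4 libraries or in DESeq2 and 4 without both W_W replicate 4 and JA_W replicate 1. LOX2, the main lipoxygenase of leaf JA synthesis, averaged 25409 ± 3879.8 CPM in JA_JA and 3903 ± 338 in JA_W, and 20371 ± 1372 in W_JA and 2098 ± 532 in W_W, and its interaction of -0.58 ± 0.24 did not pass the test (edgeR adjusted p = 0.102). AOS, allene oxide synthase, was called, with responses of 1.79 ± 0.14 after JA history and 2.58 ± 0.14 after water history (edgeR adjusted p of the interaction = 0.0107), as was LOX3 (-1.47 ± 0.40, edgeR adjusted p = 0.0199). Of 13 JAZ repressors 1 was more positive and 2 more negative (7.69% and 15.4%, against 8.01% and 10.4% of all genes). The JAZ count called more positive was 0 without any 1 of W_W replicates 1 and 3, W_JA replicates 1, 3 and 4, JA_W replicates 2, 3 and 4 and JA_JA replicates 1, 3 and 4, 3 without JA_W replicate 1, 0 with no low-count filter or in limma-voom and 3 without both W_W replicate 4 and JA_W replicate 1. The more negative count was 1 without any 1 of W_W replicate 2 and JA_W replicate 2 and 1 with a filter of 1 CPM in 4 libraries or without both W_W replicate 4 and JA_W replicate 1. JAZ10 had responses of 4.53 ± 0.35 after JA history and 4.56 ± 0.34 after water history (edgeR adjusted p of the interaction = 0.977). JAZ9 had an interaction of -1.12 ± 0.19 (edgeR adjusted p = 0.00136). JAZ7 was read by 448 reads in JA_JA and 12 in JA_W, and 536 in W_JA and 63 in W_W, and JAZ13 (AT3G22275) by 38 reads in JA_JA and 19 in JA_W, and 55 in W_JA and 2 in W_W. The JAZ7 call was lost without any 1 of 11 libraries (log2 1.80 to 2.25, edgeR adjusted p 0.0518 to 0.119). With all libraries kept it was lost with no low-count filter (edgeR adjusted p = 0.0571, log2 2.07) and in limma-voom (limma adjusted p = 0.106, log2 2.02). The call of JAZ13 was lost without W_W replicate 2 (edgeR adjusted p = 0.0614) or JA_W replicate 2 (edgeR adjusted p = 0.0534) or without both W_W replicate 4 and JA_W replicate 1 (edgeR adjusted p = 0.0635, log2 -3.07).

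Among JA transcription factors MYC4 (AT4G17880), one of the MYC factors that activate glucosinolate genes, was the 1 of 11 that was called, and it was more negative. The share of the list called more negative, 9.09%, was close to the 10.4% of all genes. Genes of that list called more positive numbered 1 without any 1 of W_W replicate 4, W_JA replicate 2, JA_W replicate 3 and JA_JA replicates 2 and 3 and 1 with relative log expression scaling, with upper-quartile scaling, with a filter of 1 CPM in 4 libraries, without both W_W replicate 4 and JA_W replicate 1 or in DESeq2. MYC4 had 41.1, 37.7, 39.2 and 37.1 CPM in JA_JA and 49.2, 58.2, 53.0 and 48.7 CPM in JA_W, and 42.9, 43.0, 44.0 and 47.6 CPM in W_JA and 26.4, 27.0, 25.6 and 27.4 CPM in W_W. Challenged libraries lay below unchallenged ones after JA history and above them after water history, without overlap in either. The MYC4 response was -0.43 ± 0.07 after JA history and 0.74 ± 0.07 after water history, an interaction of -1.17 ± 0.10 (edgeR adjusted p = 6.76e-06). This was among the 321 genes that challenge moved in opposite directions in the 2 histories, 135 of them up after JA history and 186 down. The 3 with the smallest interaction p in each direction were AT5G21940, AT5G19120 and NPR3, and MYC4, AT4G34550 and ATWHY2. AT5G21940 averaged 11.2 ± 1.504 CPM in JA_JA and 3.66 ± 0.449 in JA_W, and 12.9 ± 1.37 in W_JA and 17.7 ± 1.62 in W_W, and its response was 1.61 ± 0.12 after JA history and -0.46 ± 0.11 after water history, an interaction of 2.07 ± 0.17 (edgeR adjusted p = 3.94e-06). The organellar single-strand DNA binding protein ATWHY2 (AT1G71260) averaged 29.0 ± 2.04 CPM in JA_JA and 41.8 ± 2.39 in JA_W, and 22.4 ± 0.812 in W_JA and 16.0 ± 1.44 in W_W, and its response was -0.53 ± 0.08 after JA history and 0.49 ± 0.08 after water history, an interaction of -1.02 ± 0.11 (edgeR adjusted p = 4.45e-05).

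Genes of JA catabolism rose with challenge in both histories: 11 of 11 tested genes rose after JA history and 11 after water history. Of these 4 were called more positive and 1 more negative. JOX4 (AT2G38240), an oxidase that hydroxylates and so inactivates JA, had 141, 106, 146 and 192 CPM in JA_JA and 0.498, 0.419, 0.445 and 0.303 CPM in JA_W, and 138, 194, 177 and 212 CPM in W_JA and 10.6, 2.097, 4.15 and 2.43 CPM in W_W. The challenged groups overlapped, and the unchallenged JA_W libraries were below the W_W libraries. The JOX4 response was 8.44 ± 0.54 after JA history and 5.23 ± 0.43 after water history, an interaction of 3.21 ± 0.65 (edgeR adjusted p = 0.0047), and 2.48 without W_W replicate 1. JOX3 had 2.15 ± 0.63, the sulfotransferase ST2A 1.81 ± 0.51 and the amidohydrolase IAR3 1.27 ± 0.37 (edgeR adjusted p = 0.03, 0.0241 and 0.0271). These calls were lost without any 1 of 5, 3 and 7 single libraries, with edgeR adjusted p up to 0.0735, 0.0632 and 0.061. JMT, which methylates JA, was more negative (-0.65 ± 0.18, edgeR adjusted p = 0.0204). The count of more positive genes was 1 to 2 without any 1 of W_W replicates 1 and 3, W_JA replicate 3 and JA_W replicates 2 and 4 and 2 in limma-voom, and the JMT call was lost without JA_JA replicate 2. With all libraries kept the JOX3 call was lost with no low-count filter (edgeR adjusted p = 0.0529, log2 2.15) and in limma-voom (limma adjusted p = 0.0697, log2 2.17), and that of ST2A in limma-voom (limma adjusted p = 0.0573, log2 1.71). The more negative count was 0 without JA_JA replicate 2 and 0 with scaling by library totals or without both W_W replicate 4 and JA_W replicate 1.

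Outputs of the MYC branch were called more negative in 6 of 14 cases and more positive in 1, with a median of -0.63, and 12 of the 14 rose after JA history and 13 after water history. Besides VSP2 the more negative members were VSP1, the myrosinase-binding protein MBP1, the terpene synthase TPS03, the cystine lyase CORI3 and the chlorophyllase CLH1. VSP1 averaged 3072 ± 549.8 CPM in JA_JA and 10.1 ± 3.73 in JA_W, and 1159.7 ± 153 in W_JA and 0.779 ± 0.304 in W_W, with a response of 8.25 ± 0.32 after JA history and 10.54 ± 0.36 after water history, an interaction of -2.28 ± 0.38 (edgeR adjusted p = 0.00112); it lies beside VSP2 and is similar to it, so reads may be split between the genes. NATA1 (AT2G39030), which acetylates ornithine, was the member more positive, with 1040.2, 1249, 1447 and 1892 CPM in JA_JA and 5.04, 1.94, 2.67 and 2.18 CPM in JA_W, and 1210.2, 1715, 1686 and 1661 CPM in W_JA and 28.4, 9.64, 10.6 and 20.03 CPM in W_W. Its JA_W libraries were all below its W_W libraries, and the challenged groups overlapped. The NATA1 response was 8.89 ± 0.46 after JA history and 6.51 ± 0.41 after water history, an interaction of 2.37 ± 0.48 (edgeR adjusted p = 0.00422). In the competing ERF branch 1 of 10 was called, ERF1, an ethylene response factor, which had 26 reads in JA_JA and 9 in JA_W, and 56 in W_JA and 239 in W_W. The count of that branch was 2 without W_JA replicate 3, 0 with a filter of 1 CPM in 4 libraries and 2 in DESeq2. ORA59, the other factor of that branch, fell in both histories, with -3.29 ± 0.53 after JA history and -3.60 ± 0.42 after water history (edgeR adjusted p of the interaction = 0.831), and the defensin PDF1.2a had an edgeR adjusted p of 0.611.

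The sign of an interaction depends on the scale for some of these genes, whose unchallenged levels differed between the histories. A log2 response compares folds, and a difference in CPM compares amounts. Among the 1539 more positive genes 28 (1.82%) had a difference of differences in mean CPM of the other sign, and among the 2000 more negative genes 58 (2.9%), against 1241 (6.46%) of all genes tested. In the MYC-branch outputs, 5 of the 6 more negative members had the other sign. Challenge added 7310.2 CPM in JA-history plants and 2731 CPM in water-history plants to the mean level of VSP2. To CSLA01 it added 309.7 CPM in JA-history plants and 187 CPM in water-history plants, to MBP1 303 CPM in JA-history plants and 237 CPM in water-history plants and to BGLU18 5640.1 CPM in JA-history plants and 3756 CPM in water-history plants. The fold was smaller and the added amount larger after JA history for each of these. NATA1 turned in the opposite sense, since challenge added 1404 CPM in JA-history plants and 1551 CPM in water-history plants. In JA catabolism 3 of the 4 more positive genes likewise had a larger fold but a smaller added amount after JA history. The 1 more negative gene of that list also had the other sign in CPM. For CHS, PAP1 and CYP79F1 the sign was the same on both scales. Challenge changed the mean of CHS by 43.5 CPM in JA-history plants and 64.4 CPM in water-history plants, that of PAP1 by 27.6 CPM in JA-history plants and 35.6 CPM in water-history plants and that of CYP79F1 by -7.52 CPM in JA-history plants and 125 CPM in water-history plants.

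**Figure D5:**
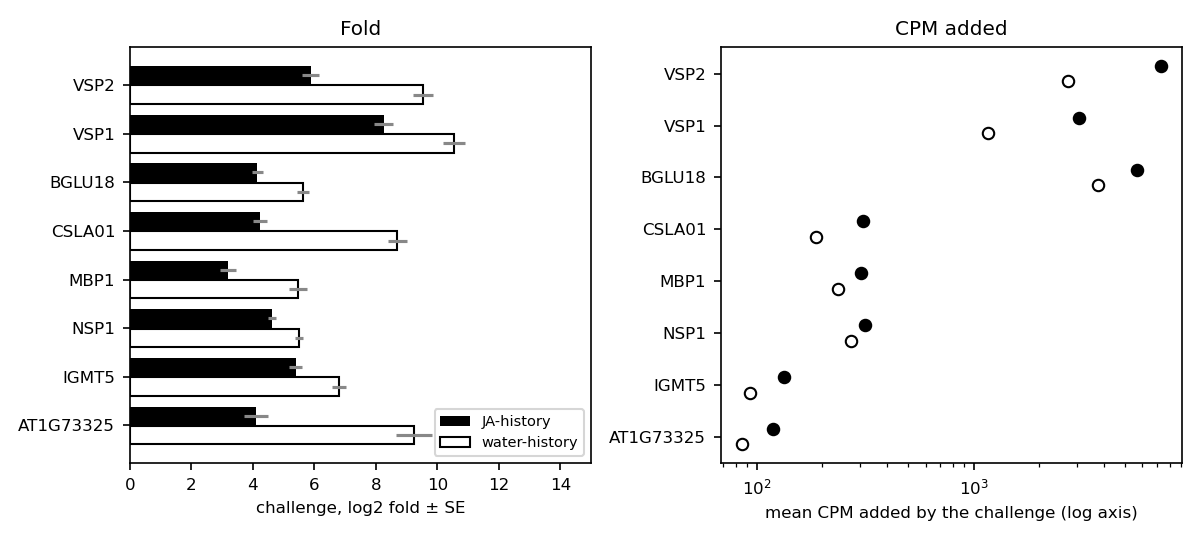
For 8 genes with a more negative log2 response after JA history, the log2 change on challenge (left) and the mean CPM that challenge added (right), for JA history and water history. The log2 change is smaller after JA history for all 8, and the added CPM is larger. For VSP2 the added CPM was 7310.2 after JA history and 2731 after water history. Among the 2000 genes called more negative, 58 (2.9%) had a difference of differences in mean CPM of the other sign. The 8 shown therefore do not represent the called genes in general.

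Abscisic acid, drought and cold genes were called more negative in 7 of 21 cases and more positive in 0, with a median of -0.68. They were RD29A, KIN1, COR15A, ERD10, CBF3, COR47 and COR6.6. RD29A (AT5G52310), a dehydration-induced protein, had 123, 134, 150.0 and 154 CPM in JA_JA and 209, 363, 304 and 303 CPM in JA_W, and 165, 159, 249 and 173 CPM in W_JA and 98.9, 84.5, 109 and 112 CPM in W_W. Challenged libraries were below unchallenged ones after JA history and above them after water history, with no overlap. The RD29A response was -1.07 ± 0.17 after JA history and 0.88 ± 0.17 after water history, an interaction of -1.95 ± 0.23 (edgeR adjusted p = 0.000107). COR15A, a chloroplast cryoprotectant, averaged 1153 ± 262 CPM in JA_JA and 942 ± 153 in JA_W, and 580.0 ± 214 in W_JA and 156 ± 60 in W_W, while the dehydrin gene ERD10 averaged 112 ± 14.02 CPM in JA_JA and 271 ± 58.9 in JA_W, and 171 ± 54.9 in W_JA and 145 ± 16.6 in W_W. Their interactions were -1.60 ± 0.39 and -1.51 ± 0.27 (edgeR adjusted p = 0.0114 and 0.00191). The KIN1 call was lost without any 1 of 9 single libraries, with log2 values of -1.70 to -1.29 and edgeR adjusted p of 0.0656 to 0.0868, and its log2 value was -2.37 without W_W replicate 3. It was also lost with scaling by library totals (edgeR adjusted p = 0.0534, log2 -1.70), with no low-count filter (edgeR adjusted p = 0.0715, log2 -1.73) and without both W_W replicate 4 and JA_W replicate 1 (edgeR adjusted p = 0.0651, log2 -1.72). KIN1 and COR6.6 are similar neighbours that may share reads. W_JA replicate 3 held the highest value of its group for RD29A, COR15A, KIN1, LTP3, LTP4 and the wax ester synthase WSD1, and without it the interactions of RD29A and COR15A were -1.78 and -1.31.

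In the list of lipid transfer proteins, wax and elongases 3 of 13 were more negative and 0 more positive, the first count being 0 to 1 without any 1 of W_JA replicate 3 and JA_JA replicate 1 and 1 in limma-voom, and the second 1 without any 1 of W_W replicate 3 and W_JA replicate 1 and 1 in DESeq2. LTP3 (AT5G59320), a cell wall lipid transfer protein, had 0.316, 0.789, 1.27 and 1.28 CPM in JA_JA and 8.30, 26.6, 14.1 and 14.6 CPM in JA_W, and 0.671, 1.501, 22.8 and 2.02 CPM in W_JA and 1.34, 2.30, 7.25 and 6.58 CPM in W_W. All JA_JA libraries were below all JA_W libraries, and W_JA and W_W overlapped. The LTP3 response was -4.13 ± 1.02 after JA history and 0.63 ± 0.86 after water history, an interaction of -4.76 ± 1.33 (edgeR adjusted p = 0.0238), and the call was lost without W_JA replicate 3 (log2 -2.51, edgeR adjusted p = 0.0687) or JA_JA replicate 1 (log2 -4.47, edgeR adjusted p = 0.0566). With all libraries kept the LTP3 call was lost in limma-voom (limma adjusted p = 0.0548, log2 -3.81). WSD1 lost its call of -2.66 ± 0.74 without W_JA replicate 3 (log2 -1.66, edgeR adjusted p = 0.0666) or JA_JA replicate 1 (log2 -2.37, edgeR adjusted p = 0.0516). LTP4, the neighbouring and similar copy of LTP3, which may share its reads, was read by 8 reads in JA_JA and 78 in JA_W, and 476 in W_JA and 60 in W_W, and its call was lost without any 1 of 10 single libraries, with edgeR adjusted p of 0.0505 to 0.0846, and with no low-count filter (edgeR adjusted p = 0.0722, log2 -6.22) and in limma-voom (limma adjusted p = 0.117, log2 -4.98).

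In ethylene synthesis and signalling 4 of 12 were more positive and 0 more negative, and the first count was 7 without both W_W replicate 4 and JA_W replicate 1 or in DESeq2. ACS6, which makes the ethylene precursor, averaged 17.2 ± 2.35 CPM in JA_JA and 14.4 ± 3.67 in JA_W, and 20.2 ± 2.09 in W_JA and 47.2 ± 7.88 in W_W, with an interaction of 1.48 ± 0.22 (edgeR adjusted p = 0.000608). EBF2, an F-box protein that removes EIN3, and the kinase CTR1 had 0.81 ± 0.17 and 0.61 ± 0.14 (edgeR adjusted p = 0.00447 and 0.00805), and EBF1 0.36 ± 0.12, a call lost without any 1 of 11 libraries (log2 0.32 to 0.38, edgeR adjusted p 0.054 to 0.096), and with scaling by library totals (edgeR adjusted p = 0.0748, log2 0.39) and with no low-count filter (edgeR adjusted p = 0.0686, log2 0.36). Of 8 touch and early wound genes 3 were more positive, WRKY40, WRKY33 and the calmodulin-like TCH3, and 1 more negative, TCH2. In this list the more positive count was 5 without JA_W replicate 1 and 6 without both W_W replicate 4 and JA_W replicate 1. WRKY40 averaged 11.8 ± 3.53 CPM in JA_JA and 5.19 ± 5.84 in JA_W, and 18.2 ± 3.52 in W_JA and 57.4 ± 15.7 in W_W, with an interaction of 2.83 ± 0.71 (edgeR adjusted p = 0.0143), and 4.01 without JA_W replicate 1. WRKY33 and WRKY40 also count in the WRKY list.

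Of 10 genes of senescence and chlorophyll breakdown 3 were more positive and 0 more negative, and the first count was 5 without W_W replicate 2 and 5 with scaling by library totals. SEN1 (AT4G35770), a gene that rises in dark and in ageing leaves, averaged 3.04 ± 0.934 CPM in JA_JA and 0.559 ± 0.0469 in JA_W, and 5.21 ± 2.13 in W_JA and 7.63 ± 3.16 in W_W, with a response of 2.44 ± 0.38 after JA history and -0.55 ± 0.30 after water history, an interaction of 2.99 ± 0.49 (edgeR adjusted p = 0.00105). NAP, a NAC factor that promotes leaf senescence, had responses of 0.83 ± 0.16 after JA history and -1.22 ± 0.14 after water history (edgeR adjusted p of the interaction = 3.56e-05), and PPH, pheophytinase, 1.53 ± 0.11 after JA history and 0.63 ± 0.11 after water history (edgeR adjusted p of the interaction = 0.00134). In the circadian clock list, 2 of 16 were more positive, RVE1 (0.92 ± 0.28) and TOC1 (0.71 ± 0.19), and GI was more negative (-0.49 ± 0.12; edgeR adjusted p = 0.031, 0.0162 and 0.0104). The more positive count was 1 without any 1 of W_W replicate 1, W_JA replicate 3, JA_W replicates 2 and 3 and JA_JA replicate 1, and the more negative count 3 without any 1 of W_W replicate 4 and W_JA replicate 2 and 2 without both W_W replicate 4 and JA_W replicate 1. The RVE1 call was lost without any 1 of 5 libraries (log2 0.79 to 0.91, edgeR adjusted p 0.0547 to 0.0719). In shares, the clock list had 12.5% more positive and 6.25% more negative, against 8.01% and 10.4% of all genes.

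Cytosolic ribosomal protein genes had 22 of 54 tested members more negative and 2 more positive, with a median of -0.42. After water history 24 rose with challenge and 1 fell, and after JA history 2 rose and 10 fell. AT3G44590 had 13.96, 13.9, 13.6 and 17.1 CPM in JA_JA and 21.5, 24.5, 21.3 and 20.5 CPM in JA_W, and 11.8, 13.6, 14.5 and 13.8 CPM in W_JA and 6.36, 12.7, 10.7 and 10.4 CPM in W_W. The JA_JA libraries were below the JA_W libraries without overlap, and W_JA and W_W overlapped. The AT3G44590 response was -0.59 ± 0.15 after JA history and 0.41 ± 0.15 after water history, an interaction of -1.0 ± 0.21 (edgeR adjusted p = 0.0049). The number of more negative calls in this list was 13 to 14 without any 1 of JA_W replicate 2 and JA_JA replicate 1. The number of more positive ones was 1 without any 1 of W_W replicates 1, 2 and 3, W_JA replicates 1 and 3, JA_W replicates 1, 3 and 4 and JA_JA replicates 1 and 2 and 1 with scaling by library totals or with no low-count filter. The 63 plastid-encoded, 18 mitochondrion-encoded and 8 small RNA genes tested had 0 calls in edgeR, and at an unadjusted p under 0.05 they had 6, 0 and 3. DESeq2 and limma-voom each called 1 plastid-encoded gene and 0 in the other 2 lists. The more positive plastid-encoded count was 1 without any 1 of W_W replicate 1, W_JA replicate 3 and JA_W replicate 1, 2 without any 1 of W_JA replicate 2 and JA_JA replicate 4 and 1 without both W_W replicate 4 and JA_W replicate 1, in DESeq2 or in limma-voom, and the mitochondrion-encoded one was 1 without JA_W replicate 1. The small RNA list had a more positive count of 1 without any 1 of W_W replicate 4, JA_W replicate 1 and JA_JA replicate 3 and 2 without both W_W replicate 4 and JA_W replicate 1. Its more negative count was 1 without any 1 of W_W replicate 1, W_JA replicate 2 and JA_W replicate 1 and 1 with upper-quartile scaling, with scaling by library totals or without both W_W replicate 4 and JA_W replicate 1. Nuclear photosystem, antenna and Rubisco genes had 1 of 43 called, the small subunit gene RBCS1B (-1.21 ± 0.23, edgeR adjusted p = 0.00248), which has close tandem copies.

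DNA methylation and demethylation genes are studied in plants as carriers of lasting effects of early treatments. Of 17 tested, 3 were more negative and 0 more positive. The first share was 17.6%, against 10.4% of all genes, and the median interaction of the list was -0.13. The more negative count was 2 to 4 over the alternatives, and the more positive count was 1 without JA_JA replicate 3. DDM1, the remodeller that maintains methylation of transposons, averaged 4.06 ± 0.359 CPM in JA_JA and 7.02 ± 0.239 in JA_W, and 2.70 ± 0.364 in W_JA and 2.96 ± 0.247 in W_W, with a response of -0.79 ± 0.11 after JA history and -0.13 ± 0.12 after water history, an interaction of -0.66 ± 0.16 (edgeR adjusted p = 0.0113). The demethylase DML3 had -0.62 ± 0.16 and AGO4, of RNA-directed methylation, -0.52 ± 0.17 (edgeR adjusted p = 0.0122 and 0.04). The AGO4 call was lost without any 1 of 12 single libraries, with log2 values of -0.54 to -0.40 and edgeR adjusted p of 0.058 to 0.106, and with relative log expression scaling (edgeR adjusted p = 0.0554, log2 -0.48). The demethylase ROS1 averaged 49.5 ± 1.89 CPM in JA_JA and 43.5 ± 5.47 in JA_W, and 37.6 ± 4.04 in W_JA and 38.8 ± 4.59 in W_W, and was not called (edgeR adjusted p = 0.293). AGO1, of the small RNA machinery, averaged 124 ± 5.68 CPM in JA_JA and 116 ± 3.10 in JA_W, and 104 ± 6.91 in W_JA and 108 ± 10.04 in W_W (edgeR adjusted p = 0.376). In the DELLA and gibberellin list 1 of 9 was more negative, RGL2 (-0.77 ± 0.25), a call lost without any 1 of 14 libraries (log2 -0.81 to -0.68, edgeR adjusted p 0.0529 to 0.0922), and with relative log expression scaling (edgeR adjusted p = 0.0539, log2 -0.73), with scaling by library totals (edgeR adjusted p = 0.0661, log2 -0.73) and in limma-voom (limma adjusted p = 0.0735, log2 -0.70). The count of that list was 2 without W_JA replicate 3. Its share called more negative with all libraries, 11.1%, was close to the 10.4% of all genes.

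Markers of leaf cell types were checked beside these lists. Of 4 guard cell markers 1 was called, KAT1, a potassium channel, at -1.25 ± 0.24 (edgeR adjusted p = 0.00273). The summed level of the 4 was 64.8 to 105 CPM in JA_JA and 67.7 to 75.7 CPM in JA_W, and 68.2 to 79.0 CPM in W_JA and 40.8 to 59.5 CPM in W_W. Phloem companion cell markers had 0 of 4 called, epidermis and trichome markers 0 of 3 tested and mitotic genes 0 of 9 in edgeR, with 0, 2 and 0 at an unadjusted p under 0.05 and 0 in each by DESeq2 and limma-voom. The more negative epidermis count was 1 without JA_W replicate 1 and 1 without both W_W replicate 4 and JA_W replicate 1, where the called gene was ATML1, a factor of epidermal identity (log2 -0.60 without that library). The summed phloem level was 824 to 1381 CPM in JA_JA and 688 to 846 CPM in JA_W, and 838 to 1045 CPM in W_JA and 612 to 845 CPM in W_W, and the summed epidermis level, with 1 of its 4 markers at no read in any library, was 88.5 to 120.5 CPM in JA_JA and 137 to 215 CPM in JA_W, and 69.0 to 109 CPM in W_JA and 103 to 140.3 CPM in W_W. The mitotic sum was 7.19 to 14.04 CPM in JA_JA and 9.29 to 12.1 CPM in JA_W, and 5.66 to 6.45 CPM in W_JA and 4.24 to 8.39 CPM in W_W. Challenged libraries lay below unchallenged ones without overlap in the epidermis sum after JA history, and above them in the guard cell sum after water history. The part of these shifts in the results was not tested.

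For genes with under 10 reads over a group the reads are given in place of a fitted fold. Of the called genes of this kind that averaged 1 CPM or more over all libraries, 8 had a more positive response, each with under 10 reads over the 4 JA_W libraries, and 4 a more negative one. MYB122 and ERF1 were also under 10 reads in JA_W and averaged under 1 CPM. LAS1, lanosterol synthase, had 2283 reads in JA_JA and 9 in JA_W, and 6506 in W_JA and 768 in W_W. WRKY62, a partner of WRKY38, had 79 reads in JA_JA and 4 in JA_W, and 774 in W_JA and 555 in W_W. AT5G22545, annotated as an uncharacterized protein, had 91 reads in JA_JA and 3 in JA_W, and 483 in W_JA and 263 in W_W. AT3G22620, annotated as a lipid transfer family protein, had 29 reads in JA_JA and 6 in JA_W, and 374 in W_JA and 1305 in W_W. The call for AT3G22620 was lost without JA_JA replicate 4 (edgeR adjusted p = 0.0584). On the negative side LBD1, a LOB-domain factor, had 8 reads in JA_JA and 285 in JA_W, and 217 in W_JA and 737 in W_W. AT5G19100, an aspartyl protease family gene, had 2316 reads in JA_JA and 157 in JA_W, and 1098 in W_JA and 7 in W_W. AT1G72140, of the major facilitator transporters, had 495 reads in JA_JA and 24 in JA_W, and 398 in W_JA and 1 in W_W. The AT1G72140 call was lost without any 1 of 5 libraries (edgeR adjusted p 0.0525 to 0.0702).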

How the data were processed

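RNA was measured by poly(A) selected, 50 bp single-end sequencing in 16 libraries, 4 in each of 4 groups that the labels name by seedling and adult spray. The labels call the libraries replicates and say that leaves of 2 plants were pooled for each; p-values measure the spread between these libraries, part of which may be technical. Each deposited table holds raw read counts per gene and CPM values that the authors computed from them. The CPM column equals counts divided by the library total, checked on every gene. The submitters' processing notes name Trimmomatic 0.38, STAR 2.6.1b, HTSeq 0.9.1 and the build TAIR10; their settings and the strand setting of the counting are not given in the sources used here, so reads of overlapping and antisense genes cannot be told apart.

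Counts were analysed in R 4.3.3 with edgeR 4.0.16: filterByExpr by group (minimum count 10, total 15) kept 19224 genes of 34262, TMM scaling (factors 0.888 to 1.14) and a robust quasi-likelihood fit with 1 mean per group (12 residual degrees of freedom; the common biological coefficient of variation was 15.4%). The contrast was (JA_JA - JA_W) - (W_JA - W_W), adjusted by Benjamini-Hochberg over all genes tested at 0.05. Standard errors are the log2 value divided by the root of F. Printed levels are CPM after TMM scaling, and differences of differences in CPM are untested. Of the listed genes 32548 matched the RefSeq annotation TAIR10.1, from which promoters were read (1 that was read is not reported here), and 8507 had no read in any library. Replicates of a group differed by more than counting noise (chi-squared per gene 5.84 to 71.5), and none was merged. Intervals from counts cover counting error only.

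In simulated data of 19124 genes, the interaction test called 14% of 50 genes changed 1.5-fold, 70% at 2-fold, 96% at 3-fold and 92% at 4-fold, and 1.45% of its calls were false. Far fewer genes were changed there than were called in the data, which alters the adjusted threshold. The counts were drawn without libraries that stood apart, and false calls were counted only among genes left with no interaction. These rates therefore need not hold for the calls in the data. Of 41 gene lists, 33 were written locus by locus and 8 by annotation pattern, 1 pattern, that of the photosystem list, being corrected after the files were read. The members, lists and tests were chosen with earlier results of these data known. Named genes were the 8 largest interactions in each direction among called genes that averaged 1 CPM or more and held 10 reads or more in every group, 4 in each direction with fewer reads in a group, up to 4 called members of each list (where a list had none, its 2 lowest p-values), the 3 in each direction with the smallest p among genes whose responses were called in opposite directions, and 9 markers fixed by name. Other called members of a list are named to complete its count. Alternatives were other scalings, other filters, a non-robust fit, a replicate block, DESeq2 1.42.0, limma-voom (limma 3.58.1), leaving out each library, and leaving out W_W replicate 4 with JA_W replicate 1. Figures were drawn with Python 3.11.15, pandas 2.3.3 and matplotlib 3.10.9.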

Additional observations from a re-analysis of the deposited data

Results flagged for a closer look

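Among 121 genes named in the text, 50 of 483 groups of 4 libraries held 1 library far from the other 3 by Dixon's criterion. It sets the gap to the nearest library against the group's range. For independent, normally distributed values chance gives about 1 in 20. These genes share the same 16 libraries, so 1 unusual library can be counted many times. Some flags rest on very few reads, as for AT1G72140 and AT3G22620. Of the 50 flagged groups JA_W replicate 1 accounted for 13, JA_JA replicate 4 for 8, W_JA replicate 3 for 7 and W_W replicate 4 for 6. JA_JA replicate 1 was highest of its group for ACS6 (20.7 CPM, the others 15.6 to 16.3) and AT5G19120 (13.0 CPM, the others 9.83 to 10.1). JA_JA replicate 1 was lowest of its group for VSP1 (2254 CPM, the others 3246 to 3402). JA_JA replicate 2 was lowest of its group for JAZ10 (12.3 CPM, the others 20.3 to 20.7). JA_JA replicate 3 was lowest of its group for LYK5 (5.26 CPM, the others 8.93 to 9.54). JA_JA replicate 4 was highest of its group for AT3G44590 (17.1 CPM, the others 13.6 to 13.96), CYP71A13 (8.03 CPM, the others 0.653 to 1.90), IGPS (229 CPM, the others 165 to 175), PAD3 (22.8 CPM, the others 4.31 to 4.76), PR1 (0.975 CPM, the others 0 to 0.0862), UGT74F2 (183 CPM, the others 82.8 to 89.8) and WRKY40 (17.0 CPM, the others 9.34 to 10.5). JA_JA replicate 4 was lowest of its group for APR2 (82.3 CPM, the others 93.0 to 94.5). JA_W replicate 1 was highest of its group for ASA1 (46.7 CPM, the others 35.5 to 36.4), ASB1 (21.4 CPM, the others 12.6 to 13.3), AT1G73325 (15.9 CPM, the others 3.71 to 5.05), BIK1 (11.8 CPM, the others 6.67 to 7.40), CYP71A13 (1.19 CPM, the others 0.209 to 0.273), IAR3 (32.4 CPM, the others 18.7 to 20.8), MBP1 (59.6 CPM, the others 28.01 to 31.5), PAD3 (24.7 CPM, the others 3.29 to 4.86) and WRKY40 (13.9 CPM, the others 1.69 to 3.46). JA_W replicate 1 was lowest of its group for CNX1 (143 CPM, the others 187 to 190.4), DDM1 (6.67 CPM, the others 7.13 to 7.17), ERDJ3B (36.9 CPM, the others 46.2 to 47.1) and ICS2 (9.21 CPM, the others 18.2 to 18.7). JA_W replicate 2 was highest of its group for COR15A (1169.6 CPM, the others 839 to 885). JA_W replicate 2 was lowest of its group for MYB51 (2.84 CPM, the others 5.34 to 5.62) and TOC1 (7.20 CPM, the others 9.41 to 9.68). JA_W replicate 4 was highest of its group for LURP1 (36.0 CPM, the others 5.48 to 10.1) and WRKY54 (9.56 CPM, the others 3.87 to 4.75). JA_W replicate 4 was lowest of its group for AT3G22620 (0 CPM, the others 0.0553 to 0.0598). W_JA replicate 1 was lowest of its group for NATA1 (1210.2 CPM, the others 1661 to 1715) and PAP1 (23.5 CPM, the others 42.5 to 45.9). W_JA replicate 3 was highest of its group for AT4G34550 (6.62 CPM, the others 4.44 to 4.70), COR15A (899 CPM, the others 451 to 502), KIN1 (21.3 CPM, the others 8.15 to 9.58), LTP3 (22.8 CPM, the others 0.671 to 2.02), LTP4 (12.5 CPM, the others 0.128 to 1.08), RD29A (249 CPM, the others 159 to 173) and WSD1 (1.94 CPM, the others 0.240 to 0.479). W_JA replicate 4 was highest of its group for TOC1 (29.5 CPM, the others 22.1 to 23.0). W_W replicate 1 was highest of its group for LBD1 (7.16 CPM, the others 4.27 to 4.51). W_W replicate 1 was lowest of its group for FMOGS-OX3 (8.31 CPM, the others 21.9 to 22.2). W_W replicate 4 was highest of its group for AGO4 (34.1 CPM, the others 22.4 to 24.0), AT1G72140 (0.0290 CPM, the others 0 to 0) and AT5G19120 (24.7 CPM, the others 18.2 to 19.3). W_W replicate 4 was lowest of its group for PAD3 (167 CPM, the others 219 to 229), TOC1 (18.2 CPM, the others 23.4 to 23.8) and WRKY33 (134 CPM, the others 197 to 207).

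The challenge response differed between the histories, by the interaction test, for 1539 genes that were more positive in JA-history plants and 2000 that were more negative.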

How the results depend on the processing

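No gene called by the interaction was called with the opposite sign under any of the 26 alternatives. Leaving out 1 library gave 2344 to 4407 calls, 1012 to 2015 more positive and 1332 to 2480 more negative. By over 2-fold it gave 646 to 1272 calls, of which 374 to 887 were more positive, the highest without JA_W replicate 1. The lowest of the first 3 counts came without JA_W replicate 2. Without W_W replicate 4 and JA_W replicate 1 together, 2450 genes were more positive, 1527 were called by over 2-fold and 1019 of these were more positive. Challenge called 4894 to 6421 genes after JA history and 4204 to 5459 after water history when 1 library was left out. Of 140 named genes 117 were called. Of these, 93 stayed called under every alternative that tested them, and 24 lost the call under at least 1. MYB122, ERF1 and F3H, among the 93, were tested in 25 of the 26 alternatives. Another 8 named genes that were not called passed under at least 1. Among these was the fixed marker CYP79B2, with an interaction of 0.86, which passed under 7. It passed in DESeq2 (DESeq2 adjusted p = 0.0271, log2 0.90) and in limma-voom (limma adjusted p = 0.0479, log2 0.91). Libraries that shared a replicate number did not consistently deviate together (r -0.332 to 0.339, 5 of 24 pairs over 0.1, and 2 libraries correlated best with their own number). With deviations from means of 4 libraries this cannot exclude pairing or a shared batch. Between differently numbered libraries, JA_W replicate 1 had r of 0.434 with JA_JA replicate 4 and -0.454 with JA_JA replicate 2. A replicate block gave 3153 calls, 1387 more positive and 1766 more negative, without calls for JAZ7, GL3, AGO4, EBF1, RGL2 and AT5G59240. AT5G59240, a cytosolic ribosomal protein gene, had an interaction of -1.32 with all libraries. Its call was lost in 14 of the 26 alternatives. The causes of these changes were not tested. Depth limits genes with few reads, where 1 read is about 0.0293 CPM.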

Other observations

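Genes grouped by the letters of their symbol gave families beyond the lists above. Of 185 families with at least 8 tested genes, 6 had at least 50% of their members called in 1 direction. They were found by looking for such a share, so their counts are descriptions. Among 19 genes with ATG symbols, of autophagy, 11 were more positive after JA history and 1 more negative; the exception, AT3G51800, carries the symbol ATG2 in the annotation but is another locus than AT3G19190, the autophagy gene ATG2. ATG8E, a ubiquitin-like protein of the autophagosome membrane, averaged 39.1 ± 2.92 CPM in JA_JA and 10.7 ± 4.49 in JA_W, and 36.7 ± 1.28 in W_JA and 40.7 ± 3.18 in W_W. The ATG8E response was 1.87 ± 0.19 after JA history and -0.15 ± 0.18 after water history (interaction 2.02 ± 0.27, edgeR adjusted p = 0.000288). Its family members ATG8F and ATG8H had responses of 1.04 ± 0.11 after JA history and 0.15 ± 0.11 after water history (interaction 0.88 ± 0.16, edgeR adjusted p = 0.00152) and 0.76 ± 0.18 after JA history and -0.27 ± 0.17 after water history (interaction 1.03 ± 0.25, edgeR adjusted p = 0.00933). ATG13, of the initiating kinase complex, averaged 21.3 ± 1.21 CPM in JA_JA and 13.7 ± 0.803 in JA_W, and 23.1 ± 2.01 in W_JA and 24.5 ± 3.23 in W_W, with responses of 0.63 ± 0.09 after JA history and -0.08 ± 0.09 after water history (interaction 0.71 ± 0.13, edgeR adjusted p = 0.00209).

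Of 13 genes with EXO symbols, which belong to the exocyst complex that tethers secretory vesicles, 8 were more positive and 0 more negative, and 13 had an interaction above 0. EXO70B2, which takes part in immune secretion, averaged 9.01 ± 3.87 CPM in JA_JA and 6.73 ± 1.2 in JA_W, and 30.9 ± 6.96 in W_JA and 63.0 ± 11.1 in W_W, with responses of 0.42 ± 0.27 after JA history and -1.03 ± 0.25 after water history (interaction 1.45 ± 0.36, edgeR adjusted p = 0.0136). In the opposite direction, 5 of 8 protein arginine methyltransferases (PRMT symbols) and 5 of 8 RNA-binding proteins (RBP symbols) were more negative. PRMT1A averaged 23.0 ± 2.21 CPM in JA_JA and 27.0 ± 2.69 in JA_W, and 15.5 ± 2.22 in W_JA and 8.61 ± 2.02 in W_W, with responses of -0.23 ± 0.14 after JA history and 0.85 ± 0.15 after water history (interaction -1.08 ± 0.20, edgeR adjusted p = 0.00241). Sugar transporters of the SWEET family had 4 of 8 more negative and 0 more positive. SWEET17, a vacuolar fructose carrier, averaged 112 ± 11.1 CPM in JA_JA and 99.7 ± 10.2 in JA_W, and 85.1 ± 1.68 in W_JA and 32.05 ± 6.74 in W_W, with responses of 0.17 ± 0.12 after JA history and 1.41 ± 0.13 after water history (interaction -1.24 ± 0.18, edgeR adjusted p = 0.000373). SWEET13 had responses of -0.79 ± 0.23 after JA history and 0.57 ± 0.24 after water history (interaction -1.36 ± 0.33, edgeR adjusted p = 0.0111). The sixth family, RHA symbols, had 4 of 8 more positive. In it AT5G45130 and AT5G45710 both carry the symbol RHA1, so shared letters need not mean a shared function.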
